A study of Mus musculus with 12 samples.

Results

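The Rab GTPases are the largest branch of the Ras family of small GTP-binding proteins, and the data here follow their genes in mouse dendritic cells through LPS stimulation and treatment with JSH-23. The members were the protein-coding mouse genes of GENCODE whose symbol is Rab followed by a number and at most 1 letter and 1 further digit, with a mean of at least 1 TPM (a length-corrected transcript level scaled to the same total in every library) over all libraries. The symbol rule matched 59 genes. Of these, 44 met the level and are described here, out of 10766 protein-coding genes that met the same level and 55335 genes listed in all. The 3 members just inside the threshold were Rab44 (1.22 TPM), Rab33a (1.30 TPM) and Rab6b (1.42 TPM), and the next 2 below it were Rab3a (0.877 TPM) and Rab42 (0.478 TPM). The other 13 matching genes were lower still.

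The libraries were bulk RNA-seq of bone marrow-derived dendritic cells (BMDCs), grown from C57BL/6 mouse marrow in GM-CSF for 6 days with medium renewed every 2 days. All 12 libraries carried the CreER genotype with intact Ctcf, that is, a tamoxifen-inducible Cre recombinase at the Rosa26 locus without a floxed allele to delete, and the study's methods describe 4-hydroxytamoxifen at the start of culture and selection of floating cells by CD11c beads. There were 4 groups of 3 libraries. WT was unstimulated, and WTL received LPS, a bacterial cell wall component that signals through the receptor TLR4, at 100 ng/ml for 3 h. WT + JSH23 and WTL + JSH23 were the same conditions with JSH-23, a small molecule described as an inhibitor of NF-κB nuclear entry, at 100 µM for 3 h. The paper describes JSH-23 as a pre-treatment given before LPS. Below, JSH-23 being present refers to these groups. The marrow came from young adult mice of both sexes, and the methods describe 3 biological replicates per condition without saying whether these were separate mice or separate cultures of shared marrow, so the p-values measure the spread between these libraries. WT and WTL carry replicate numbers 4 to 6 and the JSH-23 groups 1 to 3, and no solvent for JSH-23 is named for the controls. JSH-23, its solvent and any difference between those series of libraries therefore cannot be told apart.

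Rab proteins cycle between a GDP-bound form held soluble by GDP dissociation inhibitor (GDI) and a GTP-bound form on a membrane. Exchange factors (GEFs) load GTP, GTPase-activating proteins (GAPs) return the protein to its GDP form, and effectors that bind only the GTP form carry out vesicle budding, transport, tethering and fusion. Each compartment has its own members, such as Rab1 between the endoplasmic reticulum (ER) and Golgi, Rab5 on early endosomes, Rab7 on late endosomes, Rab11 on recycling endosomes and Rab27 on secretory granules. In dendritic cells these routes carry antigen into phagosomes and lysosomes, peptide-loaded MHC class II to the surface and cytokines out of the cell, and they are remodelled when LPS matures the cells.

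The libraries held 24664724 to 34837847 expected counts, of which the Rab genes took 0.491 to 0.494% in WT, 0.515 to 0.527% in WTL, 0.483 to 0.484% in WT + JSH23 and 0.483 to 0.506% in WTL + JSH23. All 10 dendritic cell markers, among them Itgax, Flt3, Zbtb46 and the MHC class II genes, had a mean of at least 1 TPM, and their summed level was 25056 to 28432 TPM per library. All 8 macrophage markers were also present, with sums of 1184 to 1226 TPM in WT, 1743 to 1761 in WTL, 1072 to 1108 in WT + JSH23 and 1627 to 1721 in WTL + JSH23. Of the 9 neutrophil markers, 6 reached 1 TPM and Ly6g, Elane and Retnlg did not. Their sums were 195 to 219, 218 to 226, 189 to 210 and 172 to 190 TPM in the same order of groups. Of 5 T and NK cell markers only Cd8a reached 1 TPM, with list sums of 4.77 to 5.20, 2.30 to 2.73, 2.70 to 3.29 and 1.65 to 2.13 TPM. The 4 B cell and 4 mast cell and basophil markers stayed under 1 TPM. The macrophage sum was higher with LPS and lower with JSH-23 in both states, and the T and NK sum was lower with either agent, each without overlap. The dendritic cell sum was higher in WT (27548 to 28432 TPM) than in WTL (26212 to 27007) or WT + JSH23 (26338 to 26835), and the neutrophil sum had its lowest range in WTL + JSH23. Their part in the Rab results was not tested. In bulk libraries, fewer cells of a type and less RNA per cell cannot be told apart.

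In unstimulated WT cells the Rab genes spanned more than 2 orders of magnitude in TPM. Over all libraries, 9 of the 44 had a mean of at least 100 TPM, 22 lay between 10 and 100 and 13 between 1 and 10. Rab7, which drives fusion of late endosomes with lysosomes, was highest at 427 ± 7.59 TPM (SD, n = 3). Rab8b, a regulator of exocytosis and actin-rich protrusions, followed at 283 ± 9.17, then the early endosome member Rab5c at 243 ± 0.403. Rab10, which acts in exocytosis and carries TLR4 to the surface, stood at 233 ± 4.55, the recycling member Rab11a at 222 ± 18.9 and the ER-to-Golgi member Rab1a at 148 ± 7.04. These 6 genes held 47.3% of the summed Rab TPM in WT. Rab10 and Rab11a did not differ beyond the spread of their libraries, and in all 20 of the 43 neighbouring pairs in the order of levels overlapped. At the lower end Rab6b, Rab26, Rab44 and Rab33a lay between 1.29 and 1.70 TPM, each overlapping the next. Late endosome and lysosome members were found over much of the range but not at its lowest end. They ran from Rab7 and Rab32 (129 ± 2.43 TPM), a regulator of lysosome-related organelles and mitochondria, to Rab38 (3.68 ± 0.552 TPM), the nearest relative of Rab32.

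**Figure D1:**
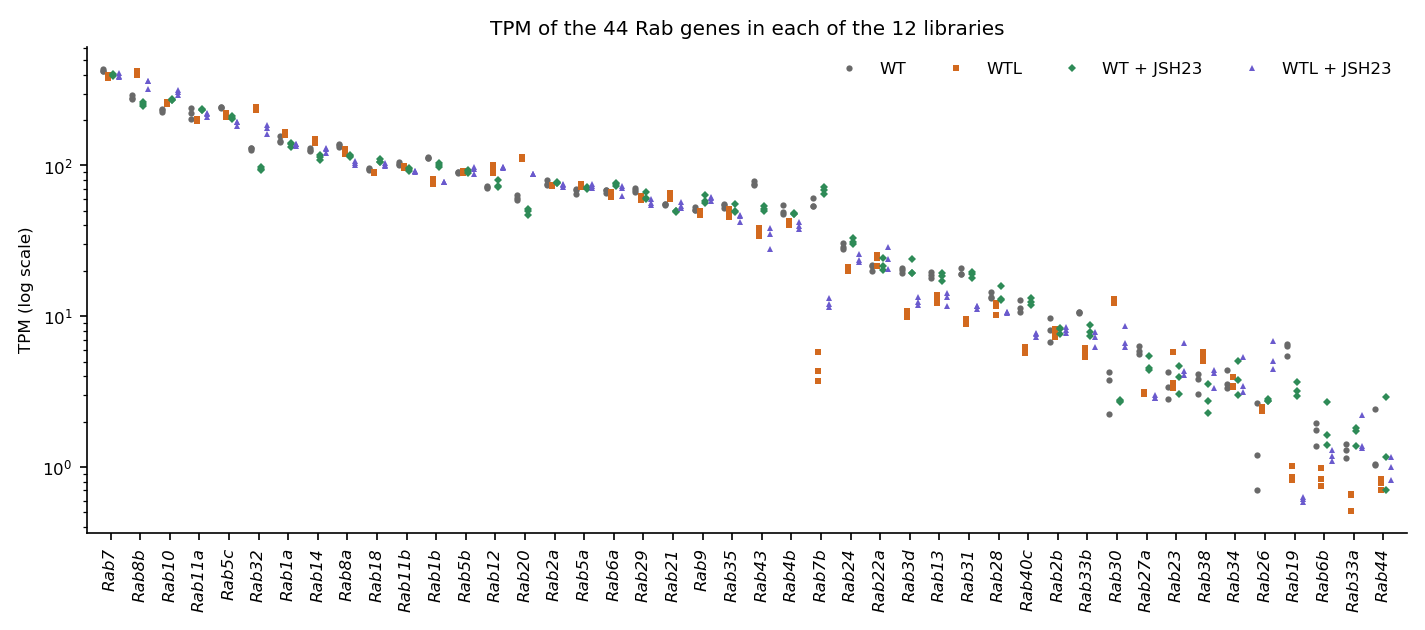
Level of each of the 44 Rab genes in TPM (log axis), with a point for each of the 12 libraries coloured by group. Rab7 was highest in WT, 9 genes had a mean of at least 100 TPM, and the stimulated libraries of Rab7b, Rab19 and Rab30 lie well apart from the unstimulated ones.

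Comparison of WTL with WT asked how LPS moves Rab transcripts. Rab7b fell 11.0-fold and Rab19 5.35-fold, while Rab30 rose 3.28-fold and Rab32 and Rab20 each rose 2.33-fold. Rab26 was the other member past 2-fold, and the rest moved by less. With edgeR's quasi-likelihood test on counts scaled by TMM (a library scaling that takes most genes as not changed) and Benjamini-Hochberg adjustment over 14357 genes, 27 of 44 members were higher (background of all genes tested 31.0%) and 11 lower (34.7%) at an adjusted p under 0.05, where log2(TPM + 1) gave 11 and 22, and 6 did not pass (Rab34, Rab44, Rab4b, Rab28, Rab24 and Rab13). Past 2-fold were 4 higher (7.36% of all genes), Rab30, Rab32, Rab20 and Rab26, and 2 lower (9.09%), Rab7b and Rab19. The groups did not overlap for 41 members, against 69.9% of all genes. Unlike the members, the genes tested were not chosen by coding type or TPM, and 12299 of the 14357 were coding. The shares of all genes given here and below are therefore those of an unlike set. The median log2 change was 0.23 for members and -0.05 for all genes.

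The direction of the small changes depended on the scale. On the authors' TPM, tested with limma on log2(TPM + 1), the same comparison gave 11 members higher and 22 lower, while the median of all genes sat at -0.26 on that scale against -0.05 with TMM. Rab7, Rab11a, Rab5c, Rab8a, Rab18, Rab29 and Rab35 passed as higher with TMM and as lower with TPM, and with upper quartile scaling 22 were higher and 13 lower. Relative to the median of all genes the scales gave nearly the same picture. With TMM 31 of the 44 members lay above that median and with TPM 30, and 43 lay on the same side under both. The members' median exceeded that of all genes by 0.28 (TMM) or 0.14 (TPM). The per-gene values that follow are CPM (counts scaled to the library's TMM-adjusted total) and log2 fold changes with SE from the edgeR fit, unless TPM is named.

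**Figure D2:**
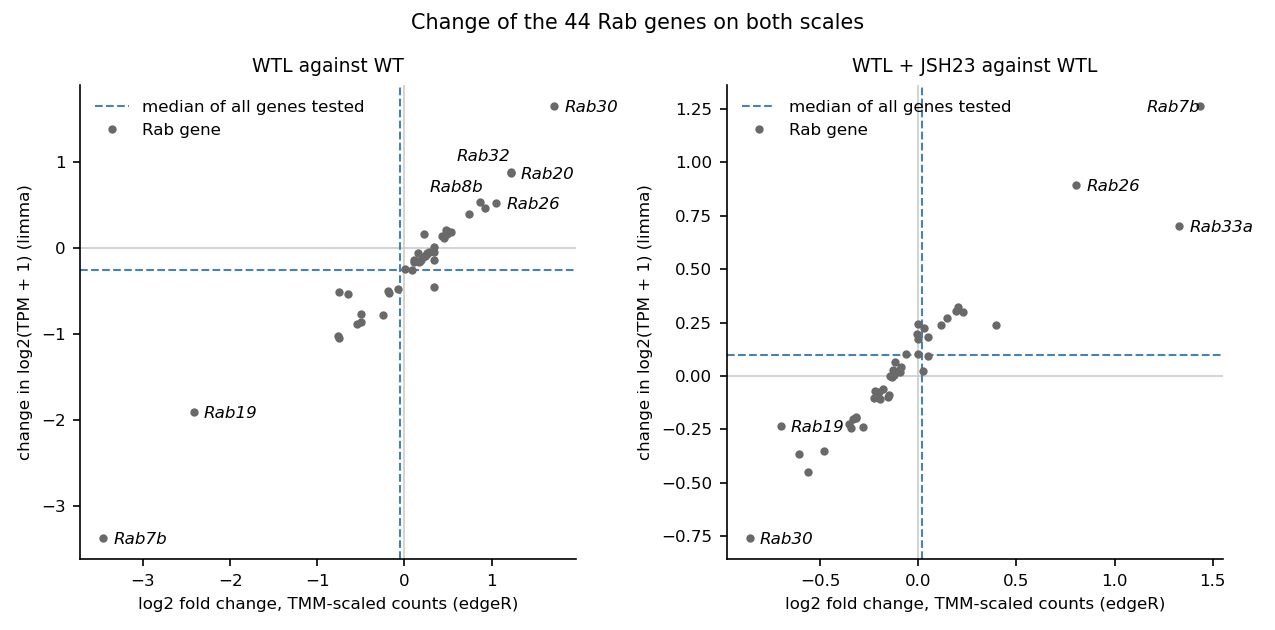
Log2 change of each Rab gene with TMM scaling (x axis, edgeR) against that on log2(TPM + 1) (y axis, limma), for WTL against WT and for WTL + JSH23 against WTL, with dashed lines at the medians of all genes. For WTL against WT the median of all genes was -0.05 on the x axis and -0.26 on the y axis, and 43 of 44 members lay on the same side of both, although 7 passed with opposite signs.

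**Figure D3:**
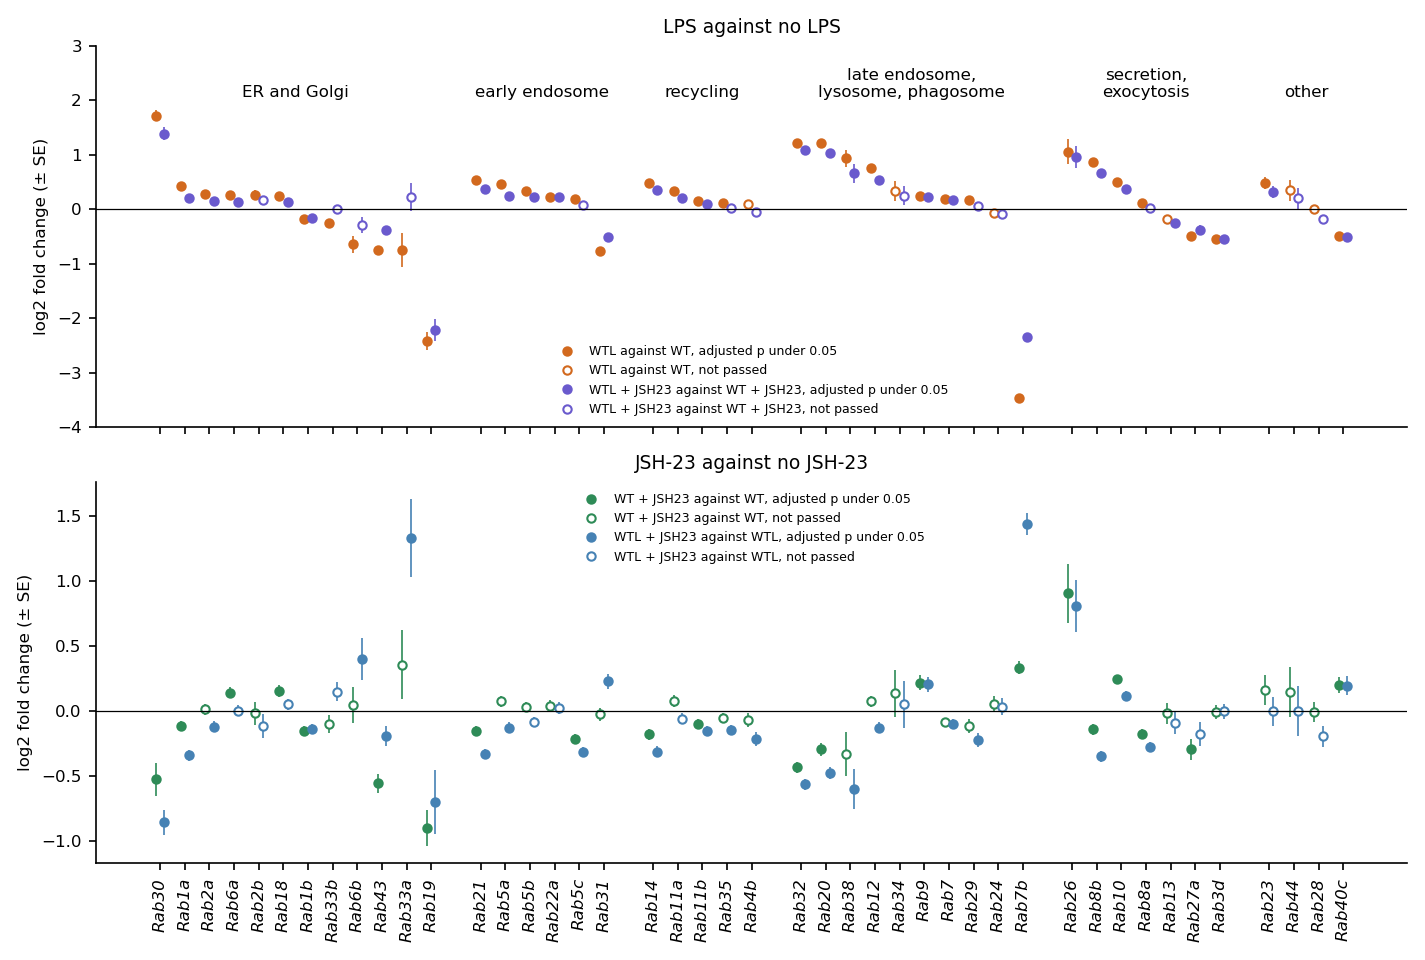
Log2 fold change ± SE (edgeR, TMM) of every Rab gene by the compartment it is known for, with LPS comparisons and JSH-23 comparisons in separate panels and open symbols for an adjusted p of 0.05 or more. Rab7b and Rab19 lie far to the low side under LPS and Rab30, Rab32 and Rab20 to the high side, while the small positive changes of Rab7, Rab11a, Rab5c, Rab8a, Rab18, Rab29 and Rab35 turn negative on the TPM scale.

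The late endosome, lysosome and phagosome group held 10 members. In WTL 7 of them were higher with TMM (31.0% of all genes) and 1 lower (34.7%), though Rab7 and Rab29 passed as lower with TPM. This group contained the gene with the lowest log2 change of the family. Rab7b (ENSMUSG00000052688.12, chr1:131688695-131715439, plus strand; GRCm38, GENCODE M21) encodes a late endosomal and Golgi-associated GTPase known to dampen TLR4 and TLR9 signalling in macrophages. Its CPM was 80.0, 89.5 and 83.1 in WT and 7.09, 7.20 and 8.89 in WTL. With JSH-23 it was 106, 107 and 104 without LPS and 21.0, 19.3 and 21.9 with it. The 4 groups did not overlap in any pair, and their order from low to high was WTL, WTL + JSH23, WT and WT + JSH23. LPS lowered it 11.0-fold without JSH-23 (log2 -3.46 ± 0.07, adjusted p = 4.79e-20) and 5.10-fold with it (log2 -2.35 ± 0.06, adjusted p = 3.53e-18). Between the stimulated groups it was 2.71-fold higher with JSH-23 (log2 1.44 ± 0.08, adjusted p = 4.99e-12), and between the unstimulated groups 1.26-fold higher (log2 0.33 ± 0.05, adjusted p = 2.1e-05), the latter not on the TPM scales (adjusted p = 0.0818 with log2(TPM + 1)). The LPS change itself differed by 1.11 ± 0.10 on the log2 scale (adjusted p = 2.05e-07), and this call held in all 12 fits that each left out 1 library.

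Rab7, the ubiquitous relative of Rab7b, moved far less. It stood at 478, 503 and 482 CPM in WT, 570.4, 559 and 535 in WTL, 449, 459 and 465 in WT + JSH23 and 504, 509.7 and 536 in WTL + JSH23. LPS libraries were above unstimulated ones in both comparisons (log2 0.19 ± 0.04, adjusted p = 0.000173 without JSH-23 and 0.17 ± 0.04, adjusted p = 0.000494 with it), but on log2(TPM + 1) these changes were -0.14 and -0.01. The stimulated groups overlapped with and without JSH-23, and that small difference (-0.10 ± 0.04, adjusted p = 0.0275) was lost when WTL replicate 4 or 5, or WTL + JSH23 replicate 1 or 2, was left out (highest adjusted p = 0.136). The TPM ratio of Rab7b to Rab7, a pair chosen after its values were seen and free of library scaling, was 0.132 ± 0.00710 in WT, 0.0119 ± 0.00286 in WTL, 0.172 ± 0.00835 in WT + JSH23 and 0.0312 ± 0.00150 in WTL + JSH23 (SD, n = 3 each).

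Rab32 (ENSMUSG00000019832.5, chr10:10545002-10558265, minus strand) and Rab20 (ENSMUSG00000031504.6, chr8:11453518-11478710, minus strand) were among the members past 2-fold upwards. Rab32 serves lysosome-related organelles and the defence of macrophages against intracellular bacteria, and Rab20 is a phagosomal GTPase known to be induced by interferon-gamma in macrophages. Rab32 measured 146, 154 and 149 CPM in WT, 356, 345 and 344 in WTL, 113, 107 and 111 in WT + JSH23 and 236, 250.3 and 221 in WTL + JSH23. All stimulated libraries lay above all unstimulated ones, and within each state the JSH-23 libraries lay below those without it. LPS raised it by 1.22 ± 0.04 on the log2 scale (adjusted p = 4.18e-16) without JSH-23 and 1.09 ± 0.04 (adjusted p = 7.2e-15) with it. JSH-23 was associated with log2 changes of -0.56 under LPS (adjusted p = 3.69e-10) and -0.44 at rest (adjusted p = 4.48e-08).

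Rab20 measured 44.5, 43.1 and 41.7 CPM in WT, 100.5, 104 and 96.6 in WTL, 35.6, 32.8 and 36.7 in WT + JSH23 and 70.9, 71.7 and 73.2 in WTL + JSH23, the same order of groups as Rab32 with no overlap. The LPS change was 1.22 ± 0.05 (adjusted p = 1.4e-15) without JSH-23 and 1.04 ± 0.05 (adjusted p = 8.88e-14) with it. With JSH-23 the level was lower both under LPS (-0.48 ± 0.05, adjusted p = 1.26e-08) and at rest (-0.30 ± 0.05, adjusted p = 4.02e-05). Whether its LPS change differed with JSH-23 was not settled (-0.18 ± 0.07, adjusted p = 0.0637), and that p passed when WTL replicate 6, WT + JSH23 replicate 2 or WTL + JSH23 replicate 3 was left out (lowest 0.0237). The difference also passed with DESeq2 (-0.21, adjusted p = 0.0317) and with its size factors in edgeR (adjusted p = 0.0347). On log2(TPM + 1) it did not (-0.05, adjusted p = 0.59). Its expected counts were fractional in all 12 libraries, as RSEM gives where reads can be placed at more than 1 locus.

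Rab38, which pairs with Rab32 in melanosome and lysosome-related organelle biogenesis, was far scarcer, at 2.51, 3.02 and 3.38 CPM in WT and 6.04, 5.70 and 5.11 in WTL. In WT + JSH23 it stood at 2.92, 2.24 and 1.84, overlapping WT, and in WTL + JSH23 at 3.15, 4.02 and 3.98, below every WTL library. It rose with LPS in both comparisons (log2 0.93 and 0.66, adjusted p = 1.85e-05 and 0.00256) and was lower with JSH-23 under LPS (-0.61 ± 0.15, adjusted p = 0.0025). At rest the difference of -0.33 did not pass (adjusted p = 0.126; 0.0242 without WT + JSH23 replicate 1). Rab12, which directs transferrin receptor to lysosomes, rose from 67.1, 67.8 and 67.1 CPM in WT to 116, 109 and 113 in WTL (log2 0.74 ± 0.04, adjusted p = 1.38e-12). With JSH-23 it went from 67.6, 70.2 and 74.9 to 101, 104 and 104, a smaller rise (0.54 ± 0.04, adjusted p = 5.37e-10), and the difference between the rises was -0.20 ± 0.06 (adjusted p = 0.0212). That call was lost without WTL replicate 4, WT + JSH23 replicate 3 or WTL + JSH23 replicate 1 (highest adjusted p = 0.0766) and on the TPM scales. Of the rest of this group, Rab9, which returns mannose-6-phosphate receptors to the Golgi, and Rab29 passed as higher in WTL at 0.24 and 0.17 with TMM but were below 0 with TPM, while Rab34 and Rab24 did not pass (0.34 and -0.08), though Rab24 was lower on log2(TPM + 1) (-0.48, adjusted p = 1.46e-05).

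The promoters of Rab20, Rab32 and Rab8b are shown as those of 3 well-expressed members that rose with LPS on both scales. They are RefSeq sequences on GRCm38.p6, for Rab20 chr8:11478711-11478890, minus strand, for Rab32 chr10:10558266-10558457, minus strand and for Rab8b chr9:66919706-66919955, minus strand, given 5′ to 3′ on the gene's strand and ending just upstream of the annotated gene, with capitals marking the GC box GGGCGG, the core of a Sp1 site.
Rab20: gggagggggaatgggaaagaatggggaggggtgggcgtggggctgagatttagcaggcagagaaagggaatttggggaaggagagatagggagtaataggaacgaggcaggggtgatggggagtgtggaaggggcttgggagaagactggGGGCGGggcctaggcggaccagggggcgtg
Rab32: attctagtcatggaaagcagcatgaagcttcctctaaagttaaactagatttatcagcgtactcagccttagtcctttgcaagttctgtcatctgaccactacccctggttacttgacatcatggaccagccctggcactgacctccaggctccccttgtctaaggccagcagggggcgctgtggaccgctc
Rab8b: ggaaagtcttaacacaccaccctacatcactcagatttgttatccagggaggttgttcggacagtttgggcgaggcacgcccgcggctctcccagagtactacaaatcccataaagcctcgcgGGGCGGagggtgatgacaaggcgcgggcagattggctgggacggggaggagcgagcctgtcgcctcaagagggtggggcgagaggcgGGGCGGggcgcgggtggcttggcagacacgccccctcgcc
Rab20 held 1 GC box in the printed stretch, and its E-box lies in the last 70 bases before the start, which are not printed. By the same count Rab8b held 2 GC boxes and Rab32 none. RefSeq promoters were at hand for 37 of the 44 members, all but Rab18, Rab2a, Rab7b, Rab30, Rab38, Rab26 and Rab44, and the 250 bases before each start were searched on both strands. The GC box was in 28 of the 37, against 35.4% of the 27025 genes in the same table. Unlike the members, those genes were not filtered by coding type or level, so the sets are unlike for every motif here. The E-box CACGTG was in 5 (Rab20, Rab21, Rab23, Rab27a and Rab5a), against 6.86%. The NF-κB form GGGNNNTTCC was in 3 (Rab11a, Rab28 and Rab9), against 5.31%. It was in none of Rab19, Rab20, Rab32 and Rab33a. These were the only members past 2-fold that could be searched, too few to compare with that share. The AP-1 form TGANTCA was only in Rab34 (7.82% of genes), the cyclic AMP element TGACGTCA only in Rab5a (1.77%) and the interferon element form GAAANNGAAA only in Rab19 (3.46%). These are matches of letters in a short window and say nothing of binding.

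Among the 12 ER and Golgi members 6 were higher (31.0% of all genes) and 6 lower (34.7%) in WTL with TMM. Rab18, among the higher, passed as lower with TPM. Rab30 (ENSMUSG00000030643.14, chr7:92741603-92844535, plus strand), a Golgi GTPase also found on autophagosomes that take up bacteria, had the highest log2 change of the family. It measured 7.00, 6.54 and 5.52 CPM in WT, 22.7, 20.9 and 19.1 in WTL, 5.50, 3.80 and 3.85 in WT + JSH23 and 12.1, 11.0 and 11.5 in WTL + JSH23. No pair of groups overlapped, and the JSH-23 libraries lay below their counterparts in both states. LPS raised it 3.28-fold (1.71 ± 0.10, adjusted p = 4.88e-12) and, with JSH-23, 2.61-fold (1.38 ± 0.12, adjusted p = 3.08e-09). With JSH-23 it was lower under LPS (-0.86 ± 0.10, adjusted p = 2.76e-07) and at rest (-0.53 ± 0.13, adjusted p = 0.00201), the latter not on the TPM scale (adjusted p = 0.332).

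Rab19 (ENSMUSG00000029923.4, chr6:39381175-39390380, plus strand), a Golgi-associated member, went the other way. Its CPM was 5.20, 5.41 and 4.48 in WT and 0.891, 1.07 and 0.829 in WTL, and 2.43, 2.60 and 3.06 in WT + JSH23 and 0.567, 0.557 and 0.605 in WTL + JSH23. The groups were again fully separated, but here LPS and JSH-23 both went with lower values. LPS lowered it 5.35-fold without JSH-23 (-2.42 ± 0.17, adjusted p = 4.36e-11) and 4.66-fold with it (-2.22 ± 0.20, adjusted p = 5.51e-09). At rest it was 1.87-fold lower with JSH-23 (-0.90 ± 0.14, adjusted p = 1.54e-05). Under LPS the difference of -0.70 (adjusted p = 0.0224) rested on levels near 1 CPM or less, and it was lost without WTL replicate 5 (adjusted p = 0.123) or WTL + JSH23 replicate 1 or 2, with DESeq2 (adjusted p = 0.0613) and on log2(TPM + 1) (adjusted p = 0.0588).

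Rab43, which acts in Golgi structure and antigen cross-presentation by dendritic cells, fell with LPS and was lower with JSH-23 at rest. It measured 189, 191 and 201 CPM in WT, 116, 114 and 115 in WTL, 126, 135 and 132 in WT + JSH23 and 102, 82.2 and 117 in WTL + JSH23. WT stood above all other groups, and the stimulated groups overlapped. The LPS change was -0.75 ± 0.07 (adjusted p = 1.03e-08) without JSH-23 and -0.39 ± 0.07 (adjusted p = 0.000148) with it, and the JSH-23 change at rest was -0.56 ± 0.07 (adjusted p = 1.69e-06). The LPS changes differed by 0.36 ± 0.10 (adjusted p = 0.0191), a call lost without WT replicate 6, WTL replicate 5 or WT + JSH23 replicate 1 (highest adjusted p = 0.0518), and with DESeq2. The JSH-23 difference under LPS (-0.20 ± 0.08, adjusted p = 0.0375) was lost in 5 of the 12 fits that left out a library, any of the WTL replicates and WTL + JSH23 replicates 1 and 2 (highest adjusted p = 0.303), and on the TPM scales. Rab43 overlaps the coding gene model Gm45140, and its counts were fractional in all 12 libraries. With both summed, an alternative chosen after seeing the data, the log2 changes were -0.67, -0.33, -0.16 and -0.50 for LPS without and with JSH-23 and for JSH-23 under LPS and at rest and no call changed.

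Rab1a, the principal GTPase of ER-to-Golgi transport, stood at 205, 220.4 and 201 CPM in WT and 286, 283 and 274 in WTL, and at 195, 186 and 197 and 221, 226 and 217 in the corresponding JSH-23 groups. Its LPS change was 0.43 ± 0.04 (adjusted p = 5.55e-09) without JSH-23 and 0.20 ± 0.04 (adjusted p = 0.000253) with it, the latter at -0.0037 (adjusted p = 0.944) on log2(TPM + 1). These changes differed by -0.23 ± 0.06 (adjusted p = 0.00775), a call that held in all 12 fits leaving out a library (highest adjusted p = 0.0306) but not on the TPM scales (-0.14, adjusted p = 0.111 with log2(TPM + 1)). JSH-23 libraries were lower under LPS (-0.34 ± 0.04, adjusted p = 3.21e-07), and at rest the small change of -0.12 was lost without WT replicate 5 or WT + JSH23 replicate 2 (highest adjusted p = 0.17) and on the TPM scales. Rab1b, its close relative, was lower in WTL (-0.18, adjusted p = 0.000233).

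Rab33a (ENSMUSG00000031104.2, chrX:48519285-48530232, plus strand), a Golgi and autophagy GTPase of immune cells, was the least abundant member in WT. It measured 0.795, 0.654 and 0.724 CPM in WT and 0.465, 0.367 and 0.460 in WTL, against 0.983, 1.01 and 0.783 in WT + JSH23 and 1.42, 0.875 and 0.907 in WTL + JSH23. All WTL libraries lay below those of the other groups. Under LPS it was 2.51-fold higher with JSH-23 (1.33 ± 0.30, adjusted p = 0.000935). The fall with LPS alone (-0.76 ± 0.31, adjusted p = 0.0376) was lost when any WTL replicate, WT replicate 4 or WT replicate 6 was left out (highest adjusted p = 0.129) and with DESeq2 (adjusted p = 0.138), and the difference between LPS changes did not pass (0.97 ± 0.40, adjusted p = 0.104). Rab6b and Rab33b were also lower in WTL (-0.65 and -0.25), whereas Rab2a, Rab2b, Rab6a and Rab18 passed as higher with TMM at 0.24 to 0.28 and had values of -0.05 to -0.09 on log2(TPM + 1).

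**Figure D4:**
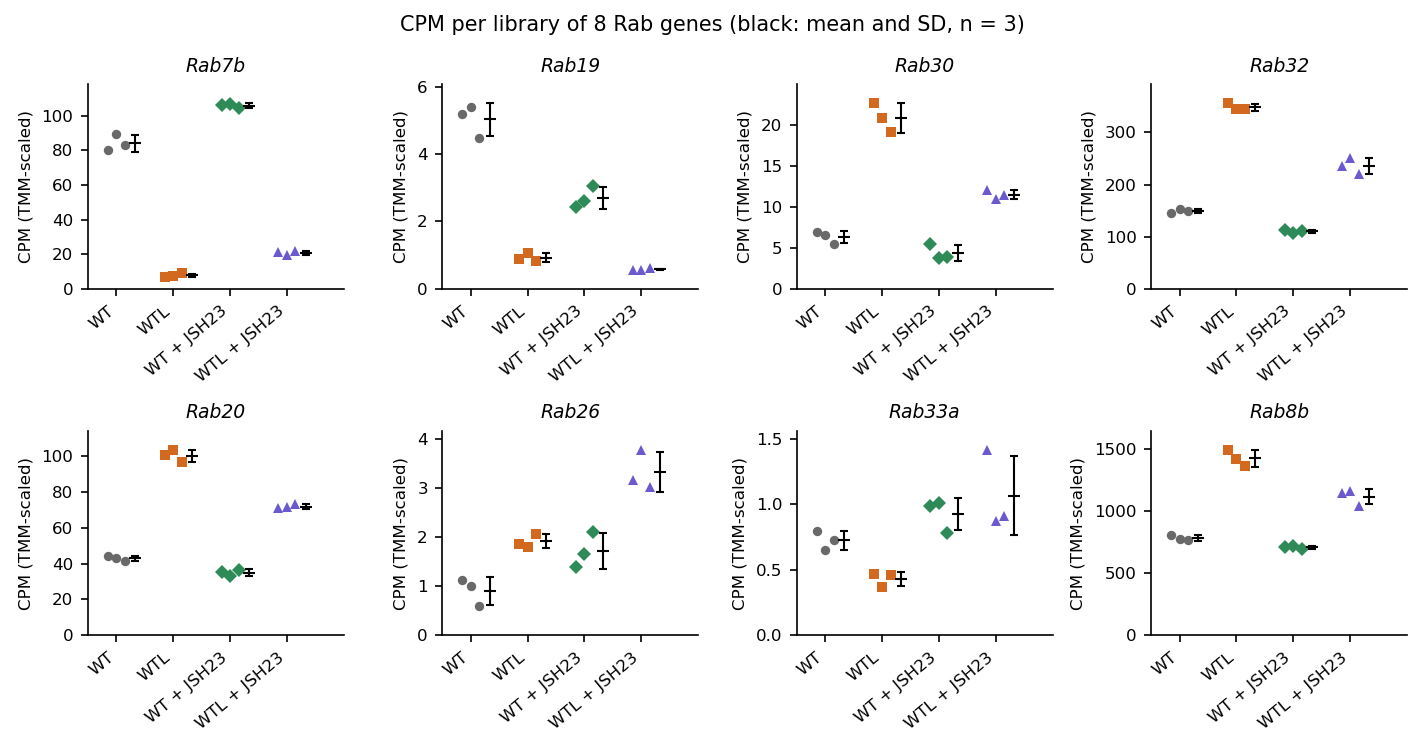
CPM (TMM-scaled) of Rab7b, Rab19, Rab30, Rab32, Rab20, Rab26, Rab33a and Rab8b in each library, with the mean and SD of the 3 libraries per group. Rab7b and Rab19 are low in both LPS groups, Rab30, Rab32, Rab20 and Rab8b are high in both and highest in WTL, and Rab26 is highest in WTL + JSH23.

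Of the 6 early endosome members 5 were higher in WTL with TMM (31.0% of all genes), though Rab5c was lower on the TPM scale. Rab31 fell, against 34.7% of all genes. Rab31 (also known as Rab22b), which serves transport between the Golgi and early endosomes, stood at 37.0, 38.0 and 39.9 CPM in WT and 22.1, 23.0 and 22.5 in WTL. In WT + JSH23 it stood at 39.2, 35.1 and 38.1, overlapping WT, and in WTL + JSH23 at 26.4, 26.9 and 25.7, above every WTL library. Its change with LPS was -0.76 ± 0.05 (adjusted p = 4.98e-11) without JSH-23 and -0.51 ± 0.05 (adjusted p = 4.7e-08) with it. The difference of 0.26 ± 0.08 (adjusted p = 0.0226) was lost without WT replicate 6, WTL replicate 4, WT + JSH23 replicate 2 or WTL + JSH23 replicate 2 (highest adjusted p = 0.0631) and with DESeq2 (0.066). Rab5a, the defining early endosome member, measured 90.5, 90.4 and 85.0 CPM in WT, 125, 123 and 115 in WTL, 94.6, 91.7 and 93.2 in WT + JSH23 and 113, 110.4 and 109 in WTL + JSH23. It was higher with LPS in both (0.45 ± 0.04, adjusted p = 3.79e-09 and 0.25 ± 0.04, adjusted p = 3.2e-05), and the JSH-23 difference under LPS (-0.13 ± 0.04, adjusted p = 0.0112) was lost without WTL replicate 4 (adjusted p = 0.0675). On log2(TPM + 1) neither the LPS change with JSH-23 (0.041, adjusted p = 0.373) nor the JSH-23 difference under LPS (-0.0063, adjusted p = 0.913) passed. The difference between its LPS changes (-0.20 ± 0.06, adjusted p = 0.0188) was lost without WT replicate 6, WTL replicate 4, WTL replicate 5 or WT + JSH23 replicate 1 and on the TPM scales. Rab21, which traffics integrins, rose by 0.53 without JSH-23 and 0.36 with it. Rab5b and Rab22a passed as higher in both LPS comparisons with TMM (0.34 and 0.23 without JSH-23) and in neither on log2(TPM + 1) (0.0071 and 0.16 without JSH-23, adjusted p = 0.883 and 0.202).

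Of the 5 recycling endosome members 4 were, with TMM, higher in WTL (31.0% of all genes) and Rab4b did not pass. On the TPM scale Rab11a and Rab35 were lower, as was Rab4b on log2(TPM + 1) (-0.25, adjusted p = 0.00138). Rab11a, the defining member, stood at 95.0, 94.9 and 90.9 CPM in WT, 118, 125 and 111 in WTL, 97.1, 98.7 and 100.1 in WT + JSH23 and 116, 116 and 108 in WTL + JSH23. Its LPS changes were 0.34 ± 0.04 (adjusted p = 1.08e-06) and 0.20 ± 0.05 (adjusted p = 0.000748) with TMM and -0.14 and -0.12 on log2(TPM + 1). Its differences with JSH-23 did not pass under LPS or at rest (-0.06 ± 0.04, adjusted p = 0.274 and 0.08 ± 0.04, adjusted p = 0.197). Rab14, which links the Golgi and endosomes, rose by 0.48 ± 0.04 (adjusted p = 2.19e-09) without JSH-23 and by 0.35 ± 0.04 (adjusted p = 5.56e-07) with it, and was lower with JSH-23 in both states (-0.32 under LPS and -0.18 at rest).

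Of the 7 secretion members 4 were higher (31.0% of all genes) and 2 lower (34.7%) in WTL with TMM, and Rab13 did not pass. Rab8a, among the higher, passed as lower with TPM, and so did Rab13 on log2(TPM + 1) (-0.50, adjusted p = 0.000115). Rab8b (ENSMUSG00000036943.9, chr9:66843664-66919687, minus strand) had the highest CPM of the 19 genes given by library, at 810.3, 773 and 771 in WT and 1499, 1422 and 1365 in WTL. In WT + JSH23 it was 709.9, 721 and 699 and in WTL + JSH23 1148, 1164 and 1047. The groups did not overlap, with LPS above rest and JSH-23 below its counterpart in each state. LPS raised it 1.82-fold (0.86 ± 0.04, adjusted p = 1.45e-13) and with JSH-23 1.58-fold (0.66 ± 0.04, adjusted p = 2.57e-11), a difference of -0.21 ± 0.06 (adjusted p = 0.0211) that was lost without WT replicate 6 or WTL replicate 4 (highest adjusted p = 0.074) and on the TPM scales. The JSH-23 change was -0.35 ± 0.04 (adjusted p = 5.55e-07) under LPS and -0.14 ± 0.04 (adjusted p = 0.00951) at rest, the latter lost without WT replicate 4 (adjusted p = 0.0589). Rab8a, its closest relative, moved by only 0.11 ± 0.04 (adjusted p = 0.0213) with LPS, and this turned negative on the TPM scale.

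Rab10 was higher with LPS and higher with JSH-23. It stood at 468, 482 and 458 CPM in WT, 674, 658 and 649 in WTL, 564, 541 and 559 in WT + JSH23 and 732, 716 and 697 in WTL + JSH23. The LPS changes were 0.49 ± 0.04 (adjusted p = 8.06e-11) and 0.37 ± 0.04 (adjusted p = 1.5e-08), and the JSH-23 changes were 0.24 ± 0.04 (adjusted p = 9.37e-06) at rest and 0.11 ± 0.04 (adjusted p = 0.0102) under LPS. With TMM the difference between the LPS changes of Rab10 (-0.13) did not pass. It passed with DESeq2 (-0.15, adjusted p = 0.007) but not on log2(TPM + 1) (0.0020, adjusted p = 0.984). Rab26 (ENSMUSG00000079657.10, chr17:24527241-24534210, minus strand), known for secretory granules and for directing synaptic vesicles to autophagy, was likewise higher with LPS and with JSH-23, at a low level. Its CPM was 1.13, 0.996 and 0.586 in WT, 1.86, 1.80 and 2.07 in WTL, 1.38, 1.66 and 2.11 in WT + JSH23 and 3.15, 3.78 and 3.02 in WTL + JSH23, so all libraries with both agents were above all others. It rose with LPS (1.05 ± 0.23, adjusted p = 0.000427, and 0.95 ± 0.20, adjusted p = 0.000333 with JSH-23) and with JSH-23 (0.80 ± 0.20, adjusted p = 0.00205 under LPS and 0.90 ± 0.23, adjusted p = 0.0031 at rest). The libraries held 17 to 95 expected counts of it, it overlaps the coding gene Traf7, and with log2(TPM + 1) the LPS change without JSH-23 did not pass (adjusted p = 0.0515).

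Rab27a and Rab3d both fell with LPS. Rab27a, which docks secretory lysosomes and is known to slow phagosome acidification in dendritic cells, stood at 8.78, 9.05 and 9.18 CPM in WT, 6.39, 6.57 and 6.03 in WTL, 7.04, 7.85 and 7.11 in WT + JSH23 and 5.24, 5.69 and 5.92 in WTL + JSH23. It fell with LPS in both (-0.50 ± 0.09, adjusted p = 2.53e-05 and -0.39 ± 0.09, adjusted p = 0.00107) and was lower with JSH-23 at rest (-0.30 ± 0.08, adjusted p = 0.00562). Rab3d, a granule maturation GTPase, measured 38.5, 42.3 and 40.4 CPM in WT, 26.5, 28.8 and 27.4 in WTL, 39.0, 42.3 and 39.1 in WT + JSH23 and 28.6, 26.8 and 27.2 in WTL + JSH23. LPS lowered it by nearly the same log2 amount in both comparisons (-0.55 ± 0.05, adjusted p = 1.25e-08 and -0.54 ± 0.05, adjusted p = 2.81e-08), and its changes with JSH-23 were -0.00 ± 0.06 (adjusted p = 0.968) under LPS and -0.01 ± 0.05 (adjusted p = 0.894) at rest, although on log2(TPM + 1) the former was 0.24 (adjusted p = 0.0319). Of the 4 members placed in no compartment, the ciliary Rab23 was higher with LPS with TMM (0.48, adjusted p = 0.000904) but did not pass on log2(TPM + 1) (0.21, adjusted p = 0.384), Rab40c, which joins a ubiquitin ligase, fell (-0.50, adjusted p = 1.7e-06), and Rab44 and Rab28 did not pass with TMM. On log2(TPM + 1) Rab28 was lower (-0.25, adjusted p = 0.0232).

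The balance between paralogs differed between groups in several pairs. The pairs given here lie outside the rule for named genes and were chosen after their values were seen, so they are given without a test, and 3 libraries against 3 cannot give an exact permutation p under 0.1. The TPM ratio of Rab8b to Rab8a was 2.20, 1.99 and 2.03 in WT and 3.46, 3.11 and 3.37 in WTL, and with JSH-23 2.25, 2.25 and 2.16 without LPS and 3.58, 3.47 and 3.02 with it. The ratio was thus higher with LPS whether or not JSH-23 was present, with no overlap. Rab1a to Rab1b went from 1.31 ± 0.0693 in WT to 2.10 ± 0.0837 in WTL and from 1.37 ± 0.0804 in WT + JSH23 to 1.76 ± 0.0326 in WTL + JSH23 (SD, n = 3). Rab22a to Rab31, both of the Rab22 subfamily, went from 1.08 ± 0.0524 to 2.62 ± 0.327 and from 1.18 ± 0.130 to 2.12 ± 0.401 in the same order. Rab5a to Rab5c moved less, from 0.279 ± 0.00957 to 0.338 ± 0.0189 and from 0.342 ± 0.0123 to 0.385 ± 0.0178. Rab11a to Rab11b, at 2.16 ± 0.157, 2.05 ± 0.0475, 2.49 ± 0.0477 and 2.36 ± 0.0924 in WT, WTL, WT + JSH23 and WTL + JSH23, overlapped between WT and WTL.

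**Figure D5:**
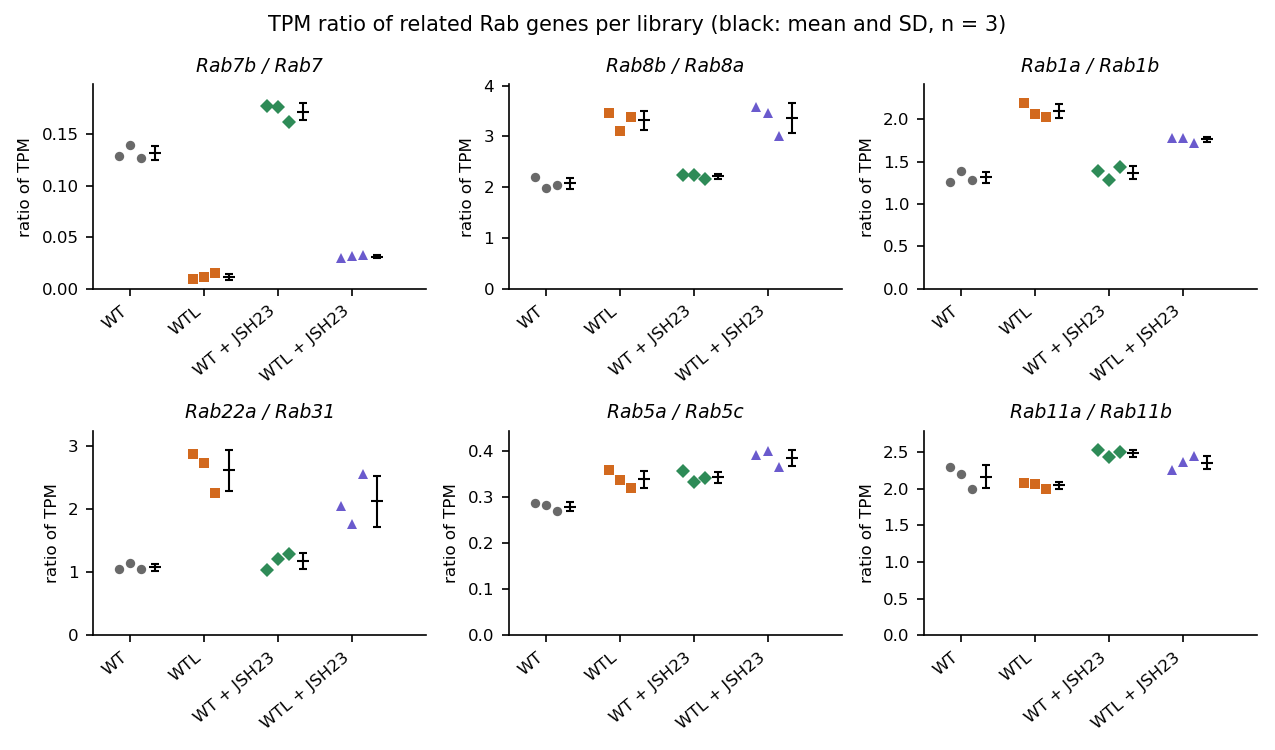
TPM ratio of 6 pairs of Rab paralogs in each library by group, with the mean and SD of 3 libraries. Rab8b to Rab8a, Rab1a to Rab1b and Rab22a to Rab31 are higher in both LPS groups, Rab7b to Rab7 is lower in both, and Rab11a to Rab11b overlaps between WT and WTL.

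Comparison of WTL + JSH23 with WT + JSH23 asked which LPS changes were seen when JSH-23 was present. Of the 44 members, 22 were higher (27.4% of all genes) and 9 lower (27.1%) with TMM, and 10 and 17 on log2(TPM + 1). With TMM there were 3 past 2-fold upwards (5.85%), Rab30, Rab32 and Rab20, and 2 downwards (4.49%), Rab7b and Rab19. The groups did not overlap for 31 members (59.1% of all genes). The members' median was 0.15 against -0.02 for all genes with TMM, and the median of all genes was -0.16 on log2(TPM + 1). The TPM scales gave 3 members past 2-fold in all. This comparison shares no library with that of WTL and WT. The 22 higher members were 81.5% of the 27 higher without JSH-23, and the other 5 of the 27 were Rab29, Rab2b, Rab35, Rab5c and Rab8a. Of the lower members 8 were shared, 72.7% of the 11 without JSH-23 and 88.9% of the 9 with it. The matching shares among all genes were not computed, so these do not tell the members from other genes. Rab33a, Rab33b and Rab6b passed as lower only without JSH-23 and Rab13 only with it, which is not a test that their changes differed.

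The LPS change was smaller with JSH-23 for all 27 members that were higher in WTL and for 10 of the 11 that were lower when scaled by TMM, but these members were chosen for passing in the first of the comparisons, which by itself favours smaller values in the second. These counts are for TMM alone, since several of the LPS changes have the other sign on log2(TPM + 1). On that scale the LPS change was lower with JSH-23 for 14 of the 27 and higher with it for 11 of the 11. Relative to the median of all genes, these counts were 24 and 11 on log2(TPM + 1) and 27 and 8 with TMM. The median absolute LPS change of all genes with TMM was also smaller with JSH-23, 0.28 against 0.39 without it. The test of the difference itself passed for 8 members, 3 with a positive difference (9.54% of all genes) and 5 with a negative one (8.44%), and the median difference was -0.10 for members and 0.03 for all genes. The split depended on the setting, with 6 positive and 0 negative on log2(TPM + 1), 3 and 0 on log2(TPM + 0.1), and 1 and 9 with DESeq2. The positive ones were Rab7b, Rab43 and Rab31, all of which fell with LPS, and the negative ones were Rab21, Rab5a, Rab12, Rab8b and Rab1a, all of which rose. Of these, Rab7b and Rab1a held in every fit that left out 1 library, Rab21 was lost in 7 of the 12, and Rab7b, Rab31 and Rab43 passed with log2(TPM + 1) while the other 5 did not. The number of calls was 3 without WT replicate 6 or WTL replicate 4 and 5 without WT + JSH23 replicate 1.

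Comparison of WTL + JSH23 with WTL asked how Rab transcripts of stimulated cells differed with JSH-23. With TMM 8 members were higher (24.5% of all genes) and 21 lower (24.2%), but with log2(TPM + 1) 11 passed in each direction. Rab7b and Rab33a were past 2-fold upwards (3.75%). No member was past 2-fold downwards (3.25% of all genes) by edgeR's quasi-likelihood test, also 0 at an unadjusted p under 0.05 and 0 by DESeq2. The groups did not overlap for 30 members (54.8% of all genes). The members' median was -0.12 against 0.02 for all genes. With log2(TPM + 1) the median of all genes was 0.10. Relative to the median of all genes, 13 members lay above it with TMM and 16 with TPM, with 37 on the same side. By role, the lower calls with TMM were 6 of 12 ER and Golgi members, 3 of 6 early endosome, 6 of 10 late endosome, 4 of 5 recycling and 2 of 7 secretion members. On log2(TPM + 1) the 11 lower calls included Rab1a and Rab30 of the ER and Golgi and Rab5c and Rab21 of the early endosome. The rest were Rab20, Rab32 and Rab38 of the late endosome, Rab11b and Rab14 of recycling, and Rab8a and Rab8b of secretion. With TMM the lowest log2 changes were those of Rab30 (-0.86), Rab19 (-0.70) and Rab38 (-0.61), and Rab21, Rab14 and Rab5c were also lower (-0.33, -0.32 and -0.32). Beside the 2 past 2-fold, the higher members were Rab26, Rab6b, Rab31, Rab9, Rab40c and Rab10, at 0.11 to 0.80.

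Comparison of WT + JSH23 with WT asked the same of unstimulated cells. Changes were small, with 7 members higher (18.8% of all genes) and 14 lower (22.1%). None was past 2-fold upwards (2.43% of all genes) or downwards (2.94%) by edgeR's quasi-likelihood test, also 0 at an unadjusted p under 0.05 and 0 by DESeq2, although Rab26 passed upwards without WT replicate 4 or WT + JSH23 replicate 1 and Rab19 downwards without WT + JSH23 replicate 3. The groups did not overlap for 27 members (51.5% of all genes), and the medians were -0.02 for members and -0.01 for all genes. The highest log2 changes were those of Rab26 (0.90), Rab7b (0.33) and Rab10 (0.24), and the lowest those of Rab19 (-0.90), Rab43 (-0.56) and Rab30 (-0.53). On log2(TPM + 1) there were 4 higher and 14 lower with 42 members on the same side of the median. The JSH-23 comparisons at rest and under LPS share no library. They had 5 higher members in common, 71.4% of the 7 at rest and 62.5% of the 8 under LPS, and 13 lower members, 92.9% of the 14 and 61.9% of the 21. Here too the matching shares among all genes were not computed.

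Genes of the Rab cycle were taken from lists of 8 prenylation and GDI genes, 33 GEFs, 36 GAPs and 43 effectors, of which 33 effectors and all others were tested. The counts of these lists are with TMM only. Of the prenylation and GDI genes 2 were higher and 1 lower in WTL, none past 2-fold. Of the 33 GEFs 14 were higher and 12 lower (31.0% and 34.7% of all genes). Rabgef1 (Rabex-5), a GEF of Rab5 and Rab21, stood at 34.1, 36.5 and 37.0 CPM in WT and 98.7, 100.5 and 97.7 in WTL (1.46 ± 0.05, adjusted p = 4.92e-16), and Dennd5a and Rin3 also rose past 2-fold (1.31 and 1.27). Rab3il1, a GEF of the Rab8 and Rab3 subfamilies, fell from 16.9, 16.7 and 16.7 CPM to 2.83, 3.10 and 3.22 (-2.46 ± 0.08, adjusted p = 2.81e-16). Of the 36 GAPs 11 were higher and 18 lower (31.0% and 34.7% of all genes), with the list's median at -0.19 against -0.05 for all genes. Tbc1d31, Tbc1d10c and Tbc1d2, a GAP of Rab7, fell past 2-fold (-1.69, -1.54 and -1.45) and Tbc1d1, known for its action on Rab8 and Rab10, rose (1.10 ± 0.04, adjusted p = 8.86e-17). The 3 that fell were at low levels, with mean CPM in WT and WTL of 7.71 and 2.42 for Tbc1d31, 2.85 and 0.971 for Tbc1d10c and 2.45 and 0.901 for Tbc1d2.

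Of the 33 effectors tested, 11 were higher and 14 lower in WTL (31.0% and 34.7% of all genes), with 5 and 4 past 2-fold (7.36% and 9.09%). Effectors of Rab11 stood at both ends, while Rab11a itself moved by 0.34. Rab11fip1 stood at 88.8, 86.6 and 90.4 CPM in WT and 543, 510.0 and 522 in WTL (2.57 ± 0.05, adjusted p = 4.4e-21), and it rose with JSH-23 present too (2.06 ± 0.04, adjusted p = 2.09e-19). Rab11fip5 and Rab11fip4 fell (-1.54 and -1.16). Optn, an effector of Rab8, and Inpp5b, a phosphatase that binds Rab5, rose past 2-fold (1.28 and 1.20). Bicd1, a dynein adaptor of Rab6, fell (-1.32), from a mean of only 0.815 CPM in WT to 0.325 in WTL. With JSH-23 under LPS 19 GAPs were higher and 6 lower, and 16 effectors were higher and 9 lower, while the GEFs had 8 and 7, against 24.5% and 24.2% of all genes. Rin2, a GEF of Rab5, was at 194, 194 and 179 CPM in WTL and 73.8, 80.2 and 62.5 in WTL + JSH23 (-1.39 ± 0.06, adjusted p = 9.94e-14). Dennd2a, a GEF of Rab9, was higher with JSH-23 both under LPS (1.34 ± 0.12, adjusted p = 5.9e-09) and at rest (1.27 ± 0.10, adjusted p = 1.92e-09).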

How the data were processed

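RNA-seq libraries of 12 BMDC samples were paired-end. Per the methods and the submitters' processing notes, the authors trimmed reads with Trim Galore, aligned them to mm10 with STAR 2.6.0c and quantified genes with RSEM. HOMER is also listed. The deposited tables hold RSEM expected counts (not normalized) and TPM (length-corrected, summing to 1000000 per library, by the authors). The GENCODE release was not given in the sources used here, and symbols and positions were taken from GENCODE M21 (GRCm38), which matched 55154 of 55335 gene IDs without the version number. The labels describe rRNA depletion and the methods poly(A) selection, which was not settled.

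Expected counts were rounded and tested with edgeR 4.0.16 (R 4.3.3; TMM, filterByExpr, quasi-likelihood F-test, a mean per group over all 12 libraries, 8 residual degrees of freedom, common biological coefficient of variation 0.0419), with Benjamini-Hochberg adjustment over 14357 genes, after testing the script on simulated data. SE was the absolute log2 change divided by the square root of F. All 44 members were tested. For the interaction, the LPS change without JSH-23 was subtracted from the change in its presence. Counts support the comparisons within a gene and TPM the levels between genes. Counts were fractional for 16 members in some library and for 7 in all 12, and 7 members overlap another coding gene (Rab5a with Pp2d1, Rab6a with Mrpl48, Rab43 with Gm45140, Rab4b with Gm21983, Rab24 with Prelid1, Rab2b with Tox4 and Rab26 with Traf7), so their reads may be shared. Rab4a (0 to 3 counts) lies in the overlapping model Gm20388 (0 to 773) and is no member.

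Values by library are given for members past 2-fold in any pair comparison, the 3 highest and 3 lowest passing changes per comparison and in the interaction, and Rab5a, Rab7, Rab11a, Rab1a and Rab27a. Regulators are named from the 3 largest changes past 2-fold per list and comparison. Members, compartments and lists were chosen with earlier results of these data known. Alternatives were DESeq2 1.42.0, its size factors in edgeR, upper quartile scaling, limma 3.58.1 on log2(TPM + 1) and log2(TPM + 0.1), other filters, only the 6 libraries compared, other TPM limits for membership, each library left out and the replicate number as a block. Replicate numbers are shared by WT and WTL and by the JSH-23 groups, but deviations from group means correlated at only 0.0142 to 0.0614 over the 6 same-numbered pairs (above 0.1 in none), so the samples were treated as unpaired.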

Additional observations from a re-analysis of the deposited data

Results flagged for a closer look

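By the edgeR interaction test, 8 Rab genes responded to LPS by different amounts when JSH-23 was present. Of the 44 members, 3 had a positive difference (6.82%, against 9.54% of all genes) and 5 a negative one (11.4%, against 8.44%). Each difference is the log2 change in the presence of JSH-23 minus that in its absence. The difference was 1.11 for Rab7b, 0.36 for Rab43 and 0.26 for Rab31, all of which fell with LPS. It was -0.17 for Rab21, -0.20 for Rab5a, -0.20 for Rab12, -0.21 for Rab8b and -0.23 for Rab1a, all of which rose. Leaving out 1 library at a time lost the call of Rab21 in 7 of 12 fits, of Rab31 and Rab5a in 4 each, of Rab43 and Rab12 in 3 each, of Rab8b in 2 and of Rab7b and Rab1a in none. On log2(TPM + 1) the 5 negative differences did not pass, and with DESeq2 those of Rab43 and Rab31 did not.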

How the results depend on the processing

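Over the alternatives, the 95 changes of named Rab genes were recomputed 2028 times, of which 1919 kept direction and side of the threshold, 76 no longer passed, 17 newly passed and 16 reversed, all 16 on the TPM scales. The 2028 include fits that left out a library outside the comparison. They cover only the named genes. Rab5c, Rab8a, Rab18, Rab29 and Rab35, which turned negative with TPM in WTL against WT, lie outside them. With log2(TPM + 1) and log2(TPM + 0.1), Rab7 was at -0.14 on both in WTL against WT, -0.0095 on both with JSH-23 present and 0.025 on both in WTL + JSH23 against WTL. Rab11a was at -0.14 on both in WTL against WT and -0.12 on both with JSH-23 present, and Rab1a at -0.0037 on both with JSH-23 present. In WTL + JSH23 against WTL, Rab12 was at 0.028 on both and Rab3d at 0.24 and 0.26. The median of all genes differed between these scales, as given above, and no other cause was tested.

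Total counts of members, without regard to direction, moved by more than 1.5 times in few settings. Past 2-fold, WTL + JSH23 against WT + JSH23 had 3 on both TPM scales (5 with TMM), and WTL + JSH23 against WTL had 1 with log2(TPM + 1), 1 with a mean of at least 1 CPM and 1 with membership at 5 TPM (2 with TMM and 3 with log2(TPM + 0.1)). Rab33a was no longer tested or no longer a member in the last 2 of these. WT + JSH23 against WT had 1 with log2(TPM + 0.1), and the interaction had 3 there (8 with TMM). Counts of passing members by direction moved further on log2(TPM + 1). Higher and lower members went from 27 and 11 with TMM to 11 and 22 in WTL against WT. They went from 22 and 9 to 10 and 17 with JSH-23 present. For JSH-23 under LPS they went from 8 and 21 to 11 and 11. At rest they went from 7 and 14 to 4 and 14, and in the interaction from 3 and 5 to 6 and 0. Leaving out each library gave 36 to 39 members passing in WTL against WT, 27 to 31 with JSH-23 present, 22 to 29 for JSH-23 under LPS, 17 to 22 at rest and 3 to 9 for the interaction. Past 2-fold the ranges were 5 to 6, 4 to 6, 2 to 2 and 0 to 1. With the replicate block, WTL against WT had 38 passing and 6 past 2-fold, WTL + JSH23 against WT + JSH23 had 32 and 5, and the interaction had 9, where Rab20 also passed (adjusted p = 0.0443). No paired analysis was possible for the JSH-23 comparisons because their groups share no replicate number. DESeq2 gave 27 higher and 10 lower in WTL against WT. Depth limits Rab33a, Rab26, Rab44 and Rab19, the members with the fewest counts.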
